A study of Mus musculus with 6 samples.

Results

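The genes described here encode the structural components of the elastic fibre, the extensible fibre that lets the wall of the aorta stretch with each heartbeat and recoil. The members were the 10 rows of the deposited expression table named Eln, Fbn1, Fbn2, Fbln1, Fbln2, Fbln5, Efemp1, Efemp2, Mfap2 and Mfap5, out of 54532 genes in all. RNA sequencing had been performed on mouse vascular smooth muscle cells labelled wild type, which the study isolated from the abdominal aorta and calls mouse aortic smooth muscle cells (MASMCs). The cells carried an adenoviral vector with either a control plasmid (Ad-Con, 3 libraries) or a plasmid for overexpression of pyruvate dehydrogenase kinase 4 (Ad-PDK4, 3 libraries). PDK4 is a mitochondrial kinase that switches off the pyruvate dehydrogenase complex. According to the study's text both groups were also treated with angiotensin II (Ang II), a peptide hormone that raises blood pressure and is used to provoke aneurysm. The labels do not mention Ang II, so all comparisons are between 2 adenovirus-treated groups, and cells without virus or without Ang II were not analysed here. The question addressed is how the elastic fibre genes differed between the groups in a study of aortic aneurysm.

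An elastic fibre is built in layers. Elastin, secreted as the soluble monomer tropoelastin, forms the core, and fibrillin microfibrils form the scaffold around it. Fibulins and microfibril-associated glycoproteins bind the monomer and the microfibril during assembly, and lysyl oxidases cross-link the elastin into an insoluble, long-lived polymer. Microfibrils also hold latent TGF-beta (transforming growth factor beta) in the matrix. In the aorta smooth muscle cells lay down most of the elastin, largely before adulthood, and loss of elastic lamellae is a hallmark of aneurysm.

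Before the elastic fibre genes are described, the gene named in the labels needs to be given. Pdk4 had 679, 642 and 646 reads in the Ad-Con libraries and 490, 455 and 572 in the libraries labelled Ad-PDK4. Its level was 10.0 ± 0.469 FPKM (fragments scaled to gene length and library size; SD, n = 3) against 7.48 ± 0.162 (SD, n = 3), and it fell by 0.42 on the log2 scale (limma adjusted p = 0.00114). The level of the targeted gene thus went against the label. Whether transcripts of the plasmid were counted under this gene, and whether the labels of the groups are crossed, was not tested. The second group is therefore named by its label throughout, and crossed labels would turn every direction given here. Library totals ranged from 17588942 to 21861872 reads recovered from the FPKM values, and 19650 to 20615 genes had reads. Of 13423 genes tested, 21.8% were higher and 20.8% lower in the Ad-PDK4-labelled libraries (limma, Benjamini-Hochberg adjusted p below 0.05), and 6.63% also differed by a fold of at least 2. The median log2 fold change over all tested genes was -0.003. As all values are from bulk RNA, fewer cells expressing a gene and less RNA per cell cannot be told apart.

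The labelled cell type was checked against marker genes. Acta2, the smooth muscle actin, had 76.9, 78.7 and 78.4 FPKM in Ad-Con and 33.5, 38.0 and 37.2 in the Ad-PDK4-labelled libraries, and fell by 1.11 on the log2 scale (SE 0.06, limma adjusted p = 5.28e-06). The defining smooth muscle genes Myh11, Tagln and Cnn1 were nearly absent. Myh11, the smooth muscle myosin heavy chain, had 2, 2 and 2 reads against 10, 7 and 2, and Tagln had 12, 6 and 20 against 16, 4 and 14. Cnn1, encoding calponin, had 30, 20 and 22 reads against 17, 8 and 14. Only 3 of the 10 smooth muscle markers passed the filter on low levels, of which 1 (Acta2) fell, while Smtn (log2 fold change 0.02) and Lmod1 (-0.29) were not called. The sign for Smtn flipped under quantile normalization and without Ad-PDK4 replicate 2. Mylk, below the filter, had 188, 168 and 122 reads against 27, 28 and 24. Without the filter it was called lower (log2 fold change -1.93, limma adjusted p = 0.00197). The summed level of the list was 88.4 to 89.9 FPKM in Ad-Con and 43.7 to 48.2 in the other group.

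Of 10 adventitial fibroblast markers 7 were tested, of which Ly6a (log2 fold change 3.90) and Dcn (0.83) rose and Dpt (-1.36), Cd34 (-1.23) and Lum (-1.16) fell. For Cd34 the change was -0.61 with a pseudocount of 1. Pdgfra, a receptor typical of fibroblasts, stood at 20.5 ± 0.729 FPKM against 19.9 ± 0.804 (SD, n = 3 each), and the summed level of the list was 364 to 422 FPKM against 492 to 563. The higher sum rested mainly on Ly6a, with a mean of 13.3 against 201 FPKM, while Dpt had 192 against 74.1. Below the filter, Pi16 had 25, 9 and 13 reads against 4, 1 and 0. Col15a1 had 16, 24 and 12 against 1, 0 and 0, and Clec3b 11, 6 and 2 against 0, 2 and 4. Without the filter Pi16 and Col15a1 were called lower (limma adjusted p = 0.0443 and 0.0213) and Clec3b was not called (0.239). Of 10 macrophage markers Cd68 fell (-1.74), Cd14 rose (0.55) and Lyz2 was not called (0.36), with 27.8 to 30.9 FPKM against 24.7 to 27.5 in sum. The defining leukocyte and macrophage genes Ptprc, Itgam, Tyrobp, C1qa and C1qb had 0 reads in all 6 libraries. Of 10 endothelial markers only Kdr was tested and it was not called (0.68, limma adjusted p = 0.0645), though it passed without trend or robust moderation and with limma-voom. Tie1, Emcn and Cldn5 were at 0 throughout, and the list summed to 0.634 to 0.827 FPKM against 0.932 to 1.18. The part of these marker differences in the values that follow was not tested.

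The members differed far more from each other than between the groups. Expressed per length, the order of their mean levels was the same in both groups, from Fbln2 through Efemp1, Efemp2, Fbln5, Fbn1, Fbln1, Mfap5 and Mfap2 down to Eln and Fbn2. In Ad-Con the mean was 242 FPKM for Fbln2 and 0.0825 FPKM for Eln. The ranges of neighbouring members did not overlap in Ad-Con, whereas in the Ad-PDK4-labelled libraries Fbln2 overlapped Efemp1 and Eln overlapped Fbn2. The 10 genes together reached 585 to 627 FPKM in Ad-Con and 592 to 653 in the Ad-PDK4-labelled libraries, so the summed level of the components overlapped between the groups. Fibulin genes (Fbln1, Fbln2, Fbln5, Efemp1 and Efemp2) made up 94.4 to 95.2% of that sum in every library. RNA for the adaptor proteins of the fibre was abundant in these cells, and RNA for its core was scarce.

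**Figure D1:**
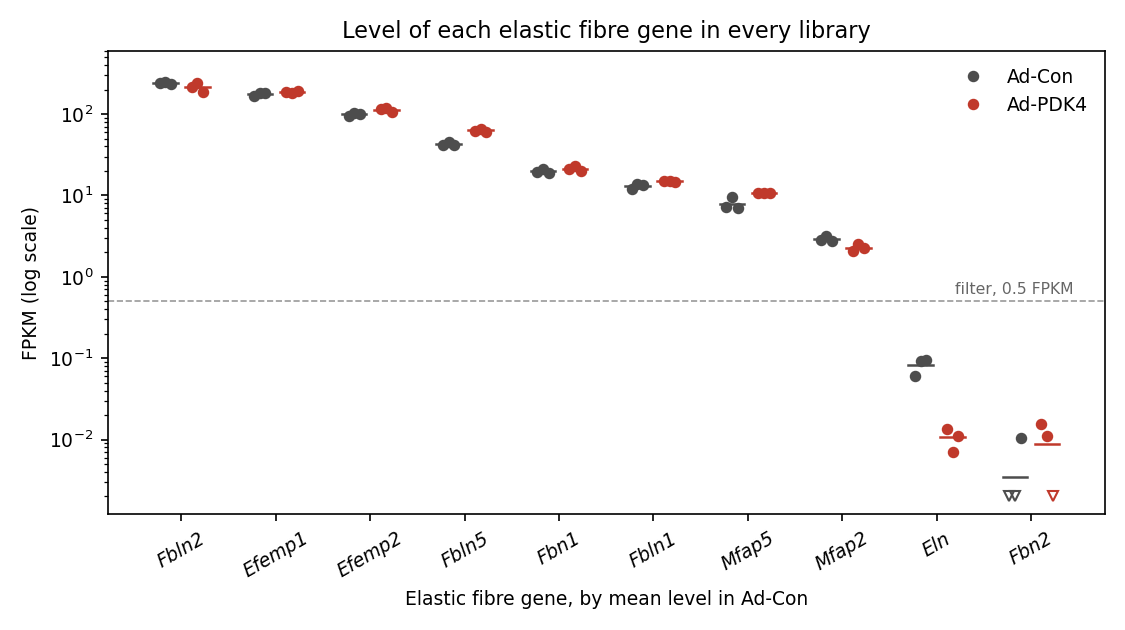
Level of each elastic fibre gene in FPKM (log scale) in the 3 Ad-Con and the 3 Ad-PDK4-labelled libraries. Points are libraries, short lines are group means, open triangles at the bottom mark libraries with 0 reads and the dashed line is the filter of 0.5 FPKM. Eln and Fbn2 lie below the filter in every library, and the 8 other genes span from 2.09 FPKM (lowest library for Mfap2) to 251 FPKM (highest for Fbln2).

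Of the 10 members 8 passed the filter, a mean of at least 0.5 FPKM over all libraries. Fbln5, Mfap5 and Efemp2 rose (3 genes, where 21.8% of all tested genes were higher) and Mfap2 fell (1 gene, where 20.8% were lower). Fbn1, Fbln1, Fbln2 and Efemp1 were not called. None of these 8 genes reached a fold of 2, while 6.63% of all tested genes were called with a fold of at least 2. The groups did not overlap for 6 of the 8, against 54.3% of all tested genes. Their median log2 fold change was 0.14. The number that rose was 1 when Ad-Con replicate 1 or 3 or Ad-PDK4 replicate 1 or 2 was left out, and that 1 gene was Fbln5 each time. The number that fell was 0 without Ad-Con replicate 1, 2 or 3 or Ad-PDK4 replicate 1 or 3, and 2 without Ad-PDK4 replicate 2.

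**Figure D2:**
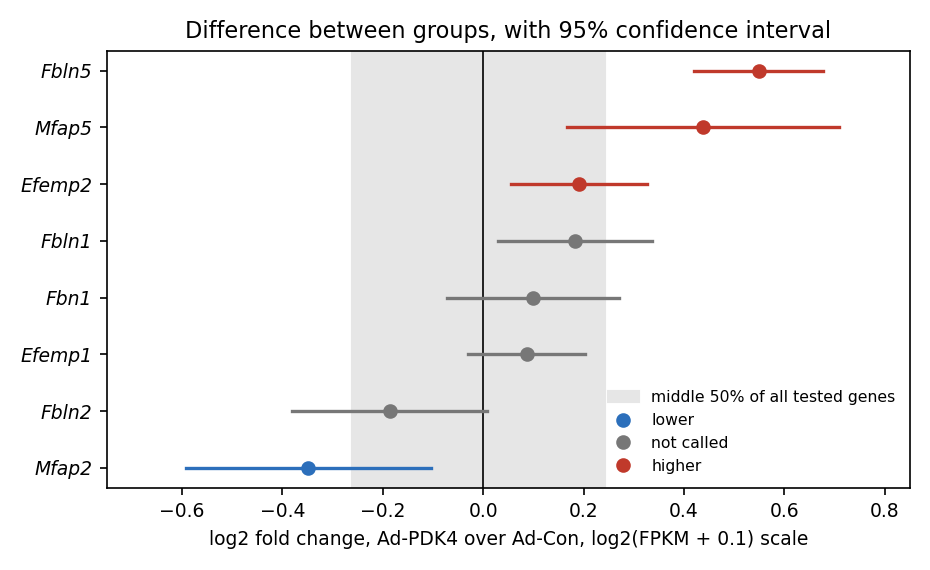
Log2 fold change (Ad-PDK4-labelled over Ad-Con, on the log2(FPKM + 0.1) scale) of the 8 tested elastic fibre genes, with the 95% confidence interval from limma as bars. The grey band holds the middle 50% of all tested genes (-0.26 to 0.24). Only Fbln5, Mfap5 and Mfap2 have estimates outside the band, and of these the interval of Fbln5 alone stays wholly outside it.

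Eln encodes elastin itself. It lies on the minus strand of chromosome 5 (chr5:134702593-134747323, GRCm38) and had 10, 13 and 14 reads in the Ad-Con libraries against 2, 1 and 2 in those labelled Ad-PDK4. In FPKM these were 0.0607, 0.0914 and 0.0954 against 0.0136, 0.00706 and 0.0112. Elastin RNA was thus close to the limit of detection in cells labelled as a type known for making it. In the same libraries the smooth muscle genes Myh11, Tagln and Cnn1 were nearly absent too. For Eln every Ad-Con library was above every Ad-PDK4-labelled one. No Ad-PDK4-labelled library exceeded the floor of 3 reads per library, so the difference is given as a bound with 3 reads set for each. The Ad-Con mean was 4.24-fold that level. This bound leaves out the counting error of the 10, 13 and 14 Ad-Con reads and is no confidence limit. Leaving out any 1 library gave bounds of 3.91 to 4.81. The two-sided exact permutation test over the 6 libraries gave p = 0.1, the smallest value that 3 against 3 allow. Eln did not pass the filter for the test across genes, and without the filter the limma adjusted p was 0.0579, with a range of 0.00169 to 0.128 over 8 other settings. Only limma-voom on recovered reads passed the threshold among them. A share of 3.30% of the exon bases of Eln is shared with the opposite-strand gene Gm30003, which had 0 reads.

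The fibrillins are the long rod-like proteins that polymerise into microfibrils. Fbn1, the fibrillin of adult tissue and the gene mutated in Marfan syndrome (chr2:125300594-125507993, minus strand), had 19.4, 21.2 and 18.8 FPKM in Ad-Con and 20.8, 23.0 and 19.8 in the Ad-PDK4-labelled libraries. The groups overlapped, and the log2 fold change of 0.10 (95% confidence interval -0.07 to 0.27, limma adjusted p = 0.318) was not called. Of its exon bases 20.1% are shared with Gm9913 on the opposite strand, which had 1 to 7 reads, and whether counting used strand was not stated. Fbn2, a fibrillin made mostly during development, had 0, 0 and 2 reads against 3, 2 and 0. Both groups were at or below 3 reads per library, so no fold is given. Fbn1 accordingly supplied 99.9 to 100% of the summed fibrillin FPKM in every library. Its share was 99.98% against 99.96% on average, which was not distinguishable (exact permutation p = 0.7).

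Among the 5 fibulin genes of the member list, Fbln5 had the smallest adjusted p. Fibulin-5 tethers tropoelastin to the microfibril and to integrins on the cell, and mice without it have disorganised, fragmented elastic fibres. Fbln5 (chr12:101746565-101819055, minus strand) had 42.0, 45.4 and 41.3 FPKM in Ad-Con and 62.1, 65.4 and 60.9 in the Ad-PDK4-labelled libraries. Every library of the second group lay above every Ad-Con library. The mean went from 42.9 ± 2.20 to 62.8 ± 2.29 FPKM (SD, n = 3 each), 46.3% higher, which is 0.55 on the log2 scale (SE 0.06, 95% confidence interval 0.42 to 0.68, limma adjusted p = 0.000167). The call held in all 15 alternative settings, with values of 0.50 to 0.59.

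Fbln5 belongs with Efemp1 and Efemp2 to the short fibulins, which share a chain of calcium-binding EGF-like modules and a fibulin-type C-terminal domain. Efemp2 encodes fibulin-4, which recruits lysyl oxidase to tropoelastin and without which mice form no proper elastic fibres and have tortuous, dilated arteries. Efemp2 (chr19:5473973-5481853, plus strand) had 94.5, 102 and 99.7 FPKM in Ad-Con and 116, 118 and 105 in the Ad-PDK4-labelled libraries. The groups did not overlap, and the gene rose by 14.3% (log2 fold change 0.19, 95% confidence interval 0.06 to 0.33, limma adjusted p = 0.0314). This call was narrow. The limma adjusted p was 0.105 without Ad-Con replicate 1, 0.0766 without Ad-Con replicate 3, 0.108 after leaving out Ad-PDK4 replicate 1 and 0.0742 after leaving out Ad-PDK4 replicate 2. The call was also lost without the filter (0.06) and without trend or robust moderation (0.0708). The opposite-strand gene Mus81 covers 4.57% of the exon bases of Efemp2 and had 5.33 ± 0.358 against 5.69 ± 1.08 FPKM (SD, n = 3 each).

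Efemp1 encodes fibulin-3, better known from the eye and from fascia than from the aorta. It stood at 175.9 ± 7.69 FPKM in Ad-Con and 187 ± 5.19 in the Ad-PDK4-labelled libraries (SD, n = 3 each). Although the highest Ad-Con library (180.7 FPKM) was just under the lowest of the other group (181.3 FPKM), the gene was not called (log2 fold change 0.09, 95% confidence interval -0.03 to 0.20, limma adjusted p = 0.204). Within the short fibulins, Fbln5 made up 13.8, 13.8 and 12.9% of the summed FPKM in Ad-Con and 17.04, 17.9 and 17.02% in the Ad-PDK4-labelled libraries. The 2 groups of shares did not overlap, and the difference of 3.81 percentage points had an exact permutation p of 0.1, the smallest possible here. Calculated from reads not divided by gene length, the difference was 6.62 percentage points.

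The long fibulins are Fbln1 and Fbln2, which bind fibronectin, proteoglycans and basement membrane proteins as well as elastin. Fbln2 (chr6:91212455-91272540, plus strand) was the most abundant member and ranked 162 by level among all genes of the table. It had 239.8, 251 and 235 FPKM in Ad-Con and 216, 238 and 187 in the Ad-PDK4-labelled libraries. The groups overlapped through Ad-PDK4 replicate 2, and the log2 fold change of -0.19 (95% confidence interval -0.38 to 0.01, limma adjusted p = 0.112) was not called. Without that library it was -0.27 and passed (limma adjusted p = 0.0236), as it did with limma-voom on recovered reads (0.0289). The share of Fbln2 in the summed FPKM of the 10 genes was 39.3 to 41.0% in Ad-Con and 31.6 to 36.4% in the Ad-PDK4-labelled libraries. Fbln1 (chr15:85205949-85286535, plus strand) was at 13.2 ± 0.979 against 14.9 ± 0.283 FPKM (SD, n = 3 each). The libraries did not overlap, but its log2 fold change of 0.18 (unadjusted 95% confidence interval 0.03 to 0.34) missed the threshold with a limma adjusted p of 0.0566. It passed without Ad-Con replicate 2 (0.0446), at a minimum mean of 5 FPKM (0.0450), after rescaling to TPM (0.0208) and with limma-voom (0.0341).

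The microfibril-associated glycoproteins Mfap2 (MAGP-1) and Mfap5 (MAGP-2) decorate fibrillin microfibrils, and they moved in opposite directions. Mfap5 (chr6:122505845-122529290, plus strand) had 7.24, 9.65 and 6.95 FPKM in Ad-Con and 10.6, 10.7 and 10.7 in the Ad-PDK4-labelled libraries. Ad-Con replicate 2 stood closest to the second group, whose 3 values were nearly identical. Mfap5 rose by 34.4% (log2 fold change 0.44, 95% confidence interval 0.17 to 0.71, limma adjusted p = 0.0186). The limma adjusted p was 0.0622 without Ad-Con replicate 1, 0.0608 without Ad-Con replicate 3, and 0.0515, 0.0584 and 0.0543 without Ad-PDK4 replicates 1, 2 and 3.

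Mfap2 (chr4:141010418-141015984, plus strand) rested on few reads, with 70, 67 and 61 in Ad-Con and 46, 53 and 60 in the Ad-PDK4-labelled libraries. Scaled to 2.84, 3.15 and 2.78 FPKM against 2.09, 2.50 and 2.24, the groups did not overlap. Mfap2 fell by 22.1% (log2 fold change -0.35, 95% confidence interval -0.59 to -0.10, limma adjusted p = 0.0301). The limma adjusted p was 0.0655, 0.0950 and 0.0531 without Ad-Con replicates 1, 2 and 3, and 0.101 and 0.0674 without Ad-PDK4 replicates 1 and 3. The call was also lost without the filter (0.0596) and with limma-voom (0.199). Taken as a ratio within each library, Mfap5 supplied 71.8, 75.4 and 71.4% of the summed FPKM of the pair in Ad-Con and 83.6, 81.1 and 82.6% in the Ad-PDK4-labelled libraries. This balance shifted by 9.56 percentage points without overlap between the groups (exact permutation p = 0.1, the smallest possible), and by 4.46 points when reads were not divided by length.

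**Figure D3:**
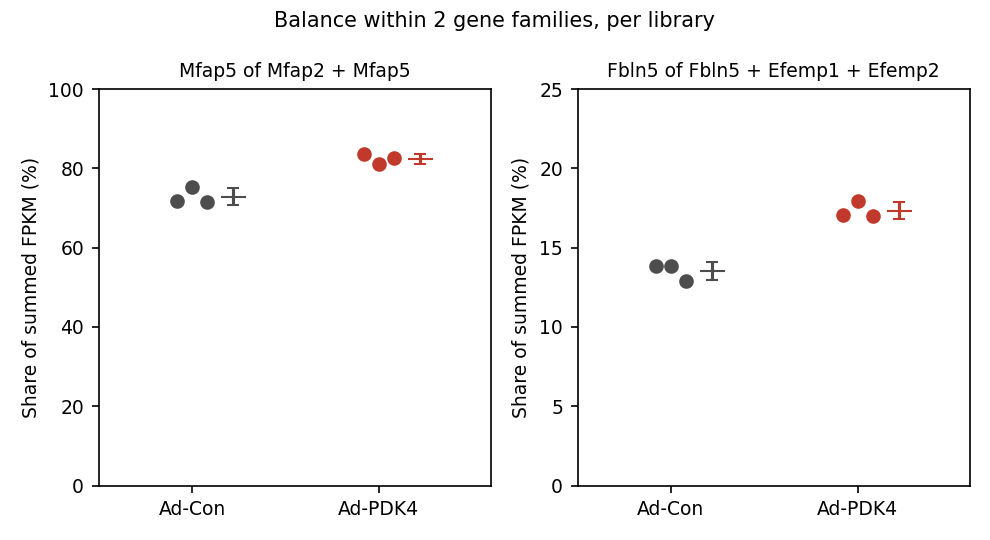
Share of Mfap5 in the summed FPKM of Mfap2 and Mfap5 (left, percent) and of Fbln5 in that of the 3 short fibulins (right, percent, on a shorter axis) for each library. Points are libraries and the bars show the mean ± SD of 3. In both panels the 3 Ad-PDK4-labelled libraries lie above the 3 Ad-Con libraries, with means of 82.4% against 72.9% and 17.3% against 13.5%.

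The promoters of 3 of the called members were read to show whether they share simple sequence elements. The table of RefSeq promoters used here (GRCm38.p6) held 7 of the 10 members, and Eln, Fbn2 and the called gene Mfap5 were not analysed here. Shown are the 250 bases before the start of Fbln5 (chr12:101819120-101819369, minus strand) and Efemp2 (chr19:5473696-5473945, plus strand), which rose, and of Mfap2 (chr4:141010174-141010423, plus strand), which fell. Each runs 5′ to 3′ towards the start site, with GC boxes (GGGCGG on either strand) in capitals in the first pair and the core of an interferon-stimulated response element (ISRE, GAAANNGAA on either strand) in capitals in the third.
Fbln5: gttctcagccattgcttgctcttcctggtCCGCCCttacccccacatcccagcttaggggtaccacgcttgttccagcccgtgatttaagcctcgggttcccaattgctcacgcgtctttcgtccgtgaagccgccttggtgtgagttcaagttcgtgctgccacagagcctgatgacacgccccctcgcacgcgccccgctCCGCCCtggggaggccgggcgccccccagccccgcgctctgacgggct
Efemp2: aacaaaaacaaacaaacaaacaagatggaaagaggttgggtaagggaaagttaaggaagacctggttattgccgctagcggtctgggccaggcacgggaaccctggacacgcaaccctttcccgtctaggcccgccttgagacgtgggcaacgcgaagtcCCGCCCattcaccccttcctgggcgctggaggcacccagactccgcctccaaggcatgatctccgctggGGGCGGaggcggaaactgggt
Mfap2: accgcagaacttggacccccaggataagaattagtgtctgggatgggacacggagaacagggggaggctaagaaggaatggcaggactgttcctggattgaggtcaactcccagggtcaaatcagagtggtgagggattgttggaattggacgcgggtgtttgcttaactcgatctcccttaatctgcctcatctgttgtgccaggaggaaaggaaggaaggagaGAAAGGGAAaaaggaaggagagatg

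Fbln5 held 2 GC boxes, at 221 to 216 and 48 to 43 bases before the start, in a window of 65.2% GC. Efemp2 likewise held 2, at 90 to 85 and 21 to 16 bases, at 59.2% GC. Mfap2 had no GC box and 1 ISRE core, at 25 to 17 bases before the start, at 51.2% GC. A GC box occurs in 32.7% of the 32851 RefSeq windows of this length and an ISRE core in 7.13%, and the median GC content of all windows is 52.4%. Of the uncalled members, Fbln2, Efemp1 and Fbn1 also held 1 GC box each, Fbn1 held 1 ISRE core, and Fbln1 held none of the motifs. The RefSeq start used for Fbn1 lay 1555 bases from the gene start in the deposited table, and that for Fbln2 309 bases. For Fbln5, Efemp2 and Mfap2 the distance was 64, 27 and 6 bases. No TATA box (TATAAA, 12.4% of all windows), AP-1 element (TGACTCA, 4.46%) or CArG box, the element bound by serum response factor (1.47%), was found in the 7 windows. The matches describe the letters only.

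Of 72 further genes of elastic fibre assembly, breakdown and signalling in 6 lists, 56 were tested, 17 rose and 22 fell, where 21.8% of all tested genes were higher and 20.8% lower. At a fold of at least 2 these were 3 and 6 genes, where 6.63% of all tested genes passed in either direction. The counts of the single lists that follow are to be read against the same shares. Of these 39 called genes 30 kept their call whichever library was left out. The 9 that lost it at least once were Emilin2, Adamts10, Loxl4, Atox1, Slc31a1, Serpinb1a, Glb1, Tgfbr1 and Smad3.

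Other genes of the microfibril and the fibulin family changed in both directions, 4 higher and 4 lower of 14 tested (21 listed), with a median log2 fold change of -0.08. Ltbp2 and Ltbp4, of the latent TGF-beta binding protein family that sits on microfibrils, went in opposite directions. Ltbp2, which competes with Ltbp1 for fibrillin but binds no latent TGF-beta, had 0.354, 0.452 and 0.290 FPKM in Ad-Con and 2.51, 2.73 and 2.81 in the Ad-PDK4-labelled libraries, and rose by 2.59 on the log2 scale (SE 0.18, limma adjusted p = 2.51e-05). With a pseudocount of 1 it was 1.43. Ltbp4, which guides elastin deposition together with fibulin-5, had 19.7, 21.2 and 19.5 FPKM against 5.94, 6.72 and 4.58 and fell by 1.81 on the log2 scale (SE 0.13, limma adjusted p = 3.91e-05). Neither gene had overlapping groups. Fbln7, another gene of the fibulin family, fell by 2.04 on the log2 scale, from 9.59 ± 1.603 to 2.25 ± 0.291 FPKM (SD, n = 3 each). Adamts6, a metalloprotease that acts on microfibrils, rose (0.48), and Emilin1, found where elastin meets the microfibril, fell (-0.35). Mfap4, a ligand of elastin and fibrillin, had 26, 18 and 8 reads against 0, 0 and 0 and was below the filter. So was Hmcn1, with 289, 318 and 271 reads against 112, 77 and 97. Without the filter Mfap4 (log2 fold change -2.44, limma adjusted p = 0.00494) and Hmcn1 (-1.33, 0.00608) were called lower. Emilin2 lost its call there (0.0522), so the even balance of the list depended on the filter.

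The cross-linking genes showed a mixed picture, with 4 higher and 4 lower of 9 tested and a median log2 fold change of -0.06. Lox, the lysyl oxidase that starts the cross-linking of elastin and collagen, had 76.1, 83.6 and 79.8 FPKM in Ad-Con and 145, 143 and 157 in the Ad-PDK4-labelled libraries, with no overlap, and rose by 0.89 on the log2 scale (SE 0.06, limma adjusted p = 1.45e-05). Loxl3 (0.74) and the copper transporter Atp7a (0.38), which loads lysyl oxidases, rose as well. Loxl2 (-0.60) and Bmp1 (-0.59), the protease that activates the lysyl oxidase proenzyme, fell. Loxl1, the family member most specific for elastin, was not called and stood at 49.8 ± 3.77 against 47.8 ± 3.44 FPKM (SD, n = 3 each; 95% confidence interval of the log2 fold change -0.23 to 0.11).

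Of 11 genes for elastin-degrading proteases 7 were tested, of which 6 fell and none rose, with a median log2 fold change of -1.09, beside 20.8% lower among all genes. Mmp12, the macrophage elastase, had 354, 312 and 284 reads in Ad-Con and 13, 8 and 14 in the Ad-PDK4-labelled libraries (log2 fold change -3.74, limma adjusted p = 1.77e-05). Its value ranged from -4.77 to -1.62 over the alternatives. Mmp2, the gelatinase A gene, was the most abundant of the list in Ad-Con and went from 321 ± 27.8 to 135 ± 5.18 FPKM (SD, n = 3 each), a fall of 1.25 on the log2 scale. Its activator Mmp14 (-0.67), the elastase gene Cela1 (-1.09) and the cathepsin K gene Ctsk (-0.47) fell too. Prtn3, for proteinase 3, also fell (-2.51), on 36, 25 and 37 reads against 8, 1 and 2, with a range of -3.50 to -0.85 over the alternatives. Ctsl, for cathepsin L, was not called (0.10, 95% confidence interval -0.001 to 0.19, limma adjusted p = 0.103) but passed after rescaling to TPM (0.0286). Ctss, below the filter, had 0, 0 and 0 reads against 4, 10 and 4, and Elane, the neutrophil elastase, had 0 throughout. Without the filter Ctss was called higher (log2 fold change 1.66, limma adjusted p = 0.0227). Of the 3 tested macrophage markers Cd68 fell (-1.74), Cd14 rose (0.55) and Lyz2 was not called (0.36), while Ptprc, Itgam, Tyrobp, C1qa and C1qb were at 0, and the part of other cells in the protease values was not tested.

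The protease inhibitors went the other way in part, with 3 higher and 1 lower of 6 tested (8 listed) and a median of 0.37. Timp1 rose by 1.83 on the log2 scale, from 77.9 ± 4.64 to 277 ± 7.92 FPKM, and Timp3, which stays bound to the matrix, by 1.58, from 23.3 ± 1.26 to 69.8 ± 1.56 FPKM (SD, n = 3 each). The limma adjusted p was 2.77e-07 for Timp1 and 5.96e-07 for Timp3. Timp2, the most abundant inhibitor and a cofactor in the activation of the Mmp2 proenzyme, fell from 754 ± 36.7 to 515 ± 7.07 FPKM (log2 fold change -0.55). The list in sum overlapped between the groups, with 1210 to 1339 FPKM against 1267 to 1272.

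**Figure D4:**
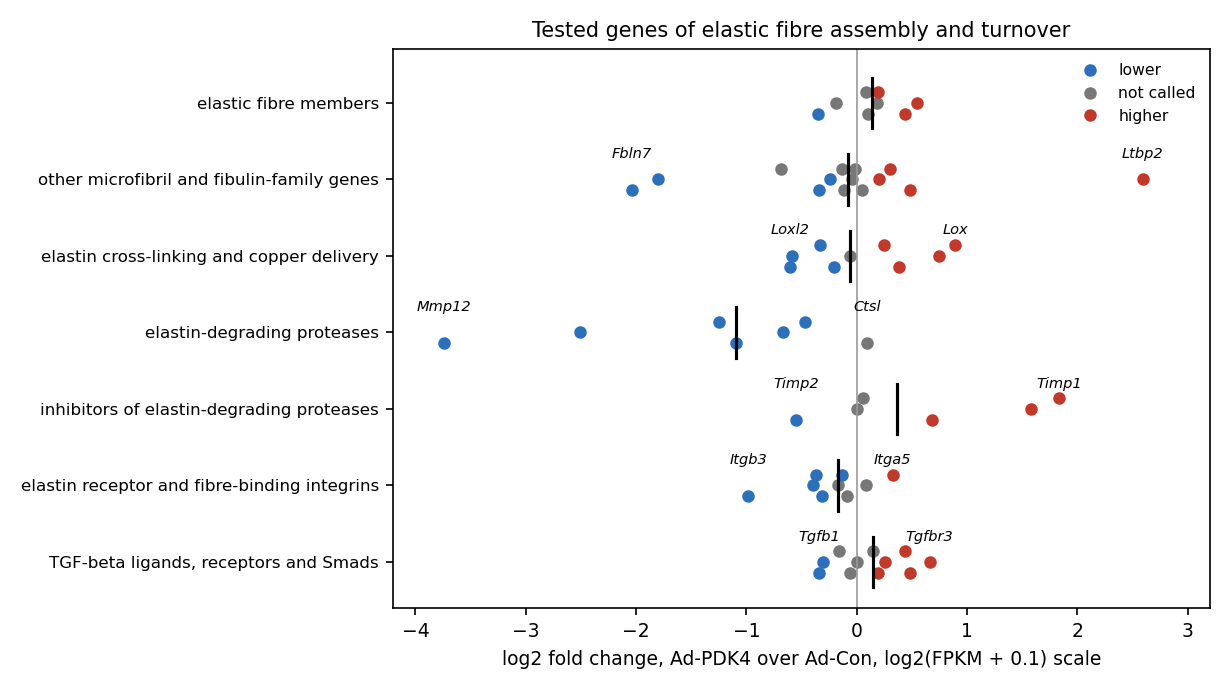
Log2 fold change (Ad-PDK4-labelled over Ad-Con, log2(FPKM + 0.1) scale) of each tested gene among the elastic fibre members and in the 6 further lists. Points are genes, coloured by whether they were called higher, lower or neither, vertical bars are list medians, and the gene names mark the points at the ends of a list. The protease list lies mostly left of 0, with a median of -1.09, while the members stay between -0.35 and 0.55.

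Among the elastin receptor and fibre-binding integrins 1 gene rose and 5 fell of 9 tested (12 listed), with a median of -0.17. The riser was Itga5 (0.32), a fibronectin receptor subunit, while Itga9 was not called (0.08, limma adjusted p = 0.807). Itgb3 (-0.98) and its partner Itgav (-0.37) fell, as did Neu1 (-0.40) and Ctsa (-0.32), subunits of the elastin receptor complex that also work in the lysosome. The TGF-beta list had 5 higher and 2 lower of 11, with a median of 0.14. Tgfbr3, the co-receptor betaglycan, rose (0.66), as did the type II receptor Tgfbr2 (0.26) and the inhibitory Smads Smad6 (0.48) and Smad7 (0.44). Tgfb1, the ligand held on microfibrils, fell (-0.34), and so did its type I receptor Tgfbr1 (-0.30, limma adjusted p = 0.0142), though this call was lost without replicate 1 of Ad-Con (0.0531) or of Ad-PDK4 (0.0515).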

How the data were processed

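RNA of 6 MASMC libraries was sequenced by the study, and the authors deposited 1 table of FPKM per gene and library, without pooling. The submitters' processing notes list CASAVA 1.8, fastp, HISAT2 2.0.5, featureCounts 1.5.0-p3, DESeq2 1.20.0 and GRCm39, but 98.3% of the 54409 gene identifiers found in GENCODE mouse release 21 had its GRCm38 coordinates, so GRCm38 is given. The labels name a SMARTER kit and the study's methods a NEBNext Ultra kit, and strand of counting was not stated. FPKM times length gave whole multiples of a step per library (100% within 0.01 reads), here called reads, and 1 read on a gene of 1 kb was worth 0.0453 to 0.0571 FPKM.

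Groups came from the treatment labels. The study calls its 3 libraries per group biological replicates, but the labels do not say that they came from separate cultures, and the p-values measure the spread between these libraries. log2(FPKM + 0.1) was compared between the groups with limma 3.58.1 in R 4.3.3 (trend and robust moderation) over the 13423 genes with a mean of at least 0.5 FPKM, without covariates, and adjusted by Benjamini-Hochberg. All adjusted p-values are from this test unless another setting is named, and confidence intervals are unadjusted. Fold changes on this scale understate those of low genes. Lower bounds set 3 reads for each library of the low group. They are no confidence limits, and leave out the counting error of the higher group and the spread between libraries. Shares were compared by two-sided exact permutation over 20 arrangements. On simulated data the test recovered 44% of 50 genes changed by 0.5 on the log2 scale, 88% of 100 at 1 and 100% of 47 at 2. Few of the 13451 genes tested there were changed, and the spread between libraries was assumed. These shares therefore do not give the power of the test in the real libraries, where far more genes were called. The members and the lists were chosen with earlier results of these data known. Named genes were the members, Pdk4, the top 2 risers and top 2 fallers tested in each list, and defining markers. Mmp2, Mmp14, Cela1, Ctsk, Emilin1, Mfap4, Ctss, Elane, Loxl1, Atp7a, Itgav, Ctsa, Tgfbr2, Smad7, Lum and Mylk were named after their values were seen. So were Hmcn1, Pi16, Col15a1 and Clec3b, the overlapping genes and the genes whose call was lost without a library. Other settings tried were pseudocounts of 1 and 0.01, no filter, a minimum of 5 FPKM, TPM, quantile normalization, moderation without trend or robust, limma-voom on recovered reads, a block for replicate number, and leaving out each library. For Eln and Fbn2, which were below the filter, unfiltered fits with a pseudocount of 0.01, with limma-voom and without each library were added after seeing the data.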

Additional observations from a re-analysis of the deposited data

How the results depend on the processing

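Of the 8 tested members Fbln5 kept its direction and its call in all 15 alternatives, and no member changed direction. Efemp2 lost its call in 6 of 15, Mfap5 in 5 of 15 and Mfap2 in 7 of 14, while Fbln1 gained one in 4 and Fbln2 in 2 of 15. The number of members called higher was 1 to 4 when 1 library was left out and the number called lower was 0 to 2, against 3 and 1 with all libraries. The number called lower was also 0 without the filter and at a minimum mean of 5 FPKM, where Mfap2 was not tested. The genes called with a fold of at least 2 numbered 890, and 514 with a pseudocount of 1 and 372 at a minimum mean of 5 FPKM, where 7731 genes were tested. The other causes were not tested. Smtn, not called in any setting, flipped sign to -0.0335 under quantile normalization and ran from -0.0244 (without Ad-PDK4 replicate 2) to 0.0436 when 1 library was left out. Rescaling moved the median of all tested genes by at most 0.04 on the log2 scale. With the replicate number as a replicate block, 2759 genes were higher and 2626 lower, the members' counts were 3 and 1, and Efemp2 had a limma adjusted p of 0.0446. Same-numbered libraries did not deviate together (correlations -0.05, -0.03 and -0.001), so no pairing was assumed. Eln had at most 14 reads in a library, Fbn2 at most 3 and Mfap2 46 to 70, and their dependence on depth was not tested.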
